A study of Sorghum bicolor with 9 samples.

Results

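Severe drought (DR2) was set against mild drought (DR1) in leaves of the C4 cereal Sorghum bicolor (sorghum), to ask which transcripts separate the deeper water shortage from the milder one. Each drought group had 3 libraries, and a control group with normal water supply (CK, 3 libraries) entered the estimate of the spread and is quoted only for orientation. The genes compared were the 34366 of 44775 entries of the gene count table that also stand in the mRNA table. All 11928 transcripts of the table of lncRNAs (long RNAs for which no protein product is recognised) were compared as well. The comparison rests on 6 of the 9 libraries, made by strand-specific sequencing of total leaf RNA. The labels name no cultivar, plant age, soil water content or length of the drought. Nothing in them ties a library to a plant or a pool of plants. The p-values therefore measure no more than the spread from library to library, which may be technical. Levels are in CPM (counts scaled to the effective library size), differences are log2 values, severe minus mild, with their SE, and means are given ± SD with n = 3 libraries a group. Positions are those of the deposited tables and span whole gene models. No genome build for them is given in the labels or headers.

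A leaf that loses water makes abscisic acid from carotenoids through 9-cis-epoxycarotenoid dioxygenase (NCED). The hormone binds receptors of the PYL family, which then inhibit type 2C protein phosphatases and so free SnRK2 kinases to close stomata and switch on genes of proline synthesis, dehydrins and sugars. In the C4 leaf, phosphoenolpyruvate carboxylase and pyruvate phosphate dikinase of the mesophyll feed carbon to NADP-malic enzyme and the Calvin cycle of the bundle sheath, a route that saves water.

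P5CS2 and DHN1, genes widely used as drought markers, had overlapping levels in severe and in mild drought, and no gene passed the edgeR test between these groups. P5CS2 (SORBI_3003G356000, chromosome 3, 67427644 to 67434548), which commits glutamate to proline, had 158, 239 and 263 CPM in the severe drought libraries, against 149, 127 and 400.4 CPM in the mild drought libraries. The dehydrin gene DHN1 (SORBI_3009G116700, chromosome 9, 45915615 to 45916682), whose water-loving protein protects cells as they dry, had 16.2, 54 and 17.6 CPM in severe and 15.3, 42.2 and 37.4 CPM in mild drought. Both drought groups lay far above the control means, which were 16.5 ± 0.709 CPM for P5CS2 and 0.682 ± 0.564 CPM for DHN1, while the drought groups overlapped each other. The log2 difference between severe and mild drought was -0.04 ± 0.41 for P5CS2 (95% interval -0.97 to 0.90) and -0.11 ± 0.69 for DHN1 (95% interval -1.67 to 1.45). The intervals leave room for a difference of nearly 2-fold in P5CS2 and of more than 2-fold in DHN1.

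Of the 22080 genes that passed the filter on low counts, edgeR's quasi-likelihood test called 0 (0%) at an adjusted p under 0.05, and the smallest adjusted p was 0.9964. At an unadjusted p under 0.05 there were 815 genes, where uniform p-values would give 1104. Of these, 299 were higher (1.35% of the genes tested) and 516 lower (2.34%) in severe drought. DESeq2 called 6 genes higher (0.0272%) and 17 lower (0.077%). The 3 severe drought libraries all lay above the 3 mild drought libraries in 661 genes (2.99%) and all below them in 1067 genes (4.83%). The median log2 difference of all tested genes was -0.03, and half-widths of the 95% intervals had a median of 0.85. Among the 14402 genes with a mean of at least 5 CPM the median half-width was 0.61, and in 9098 of them (63.2%) the interval lay within a 2-fold change either way. In the remaining genes of that level the interval reached past a 2-fold change on at least 1 side.

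**Figure D1:**
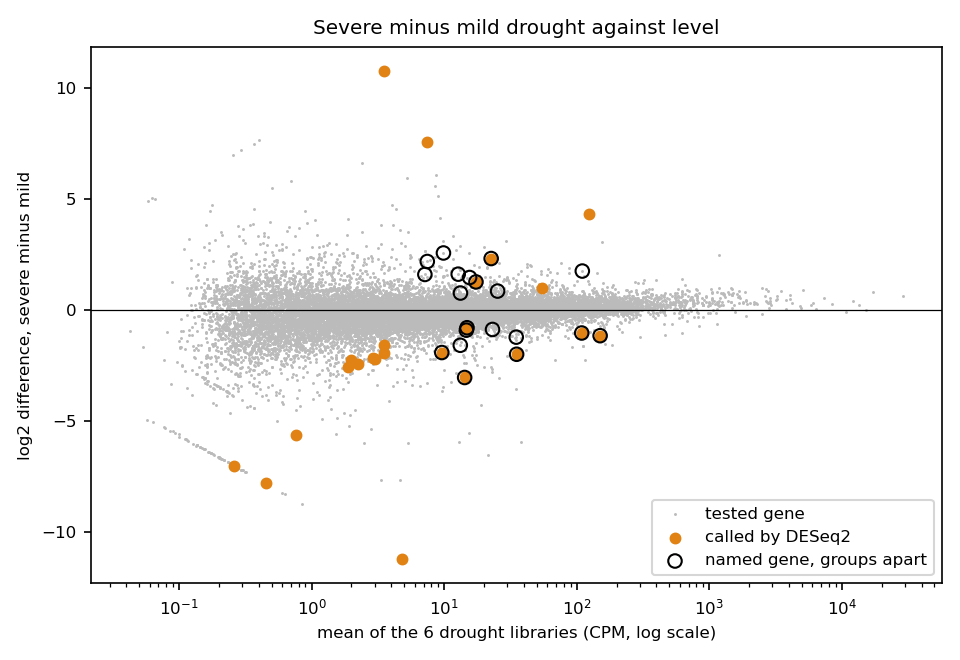
Log2 difference of each of the 22080 tested genes, severe minus mild drought (vertical axis), against its mean over the 6 drought libraries in CPM (horizontal axis, log scale). Filled points are the 23 genes called by DESeq2 and rings are the 20 named genes whose groups did not overlap. The cloud is centred near 0, at a median of -0.03.

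The libraries varied along lines that crossed the drought levels. Gene table totals were 27854146 to 35915894 counts in severe drought and 30926898 to 41223255 in mild drought, and lncRNA totals were 1213470 to 2123480. The first principal component of the 6 libraries held 33.9% of the variance and set mild drought 2 (-125.5) apart from the other libraries. The second held 25.6% and set severe drought 1 apart (128.8). Mild drought 2 was the highest of the 6 libraries in 6027 tested genes, against 2806 to 3804 for each other library, and the lowest in 4746, against 2599 to 3956. In that library 93.9% of the gene table counts fell on mRNA genes (74.6% to 86.3% in the other drought libraries). Severe drought 1 alone lacked 64 genes that stood at 5 CPM or more in each of the 8 others. The common dispersion of edgeR corresponded to a coefficient of variation of 0.503 between libraries of a group, in genes.

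**Figure D2:**
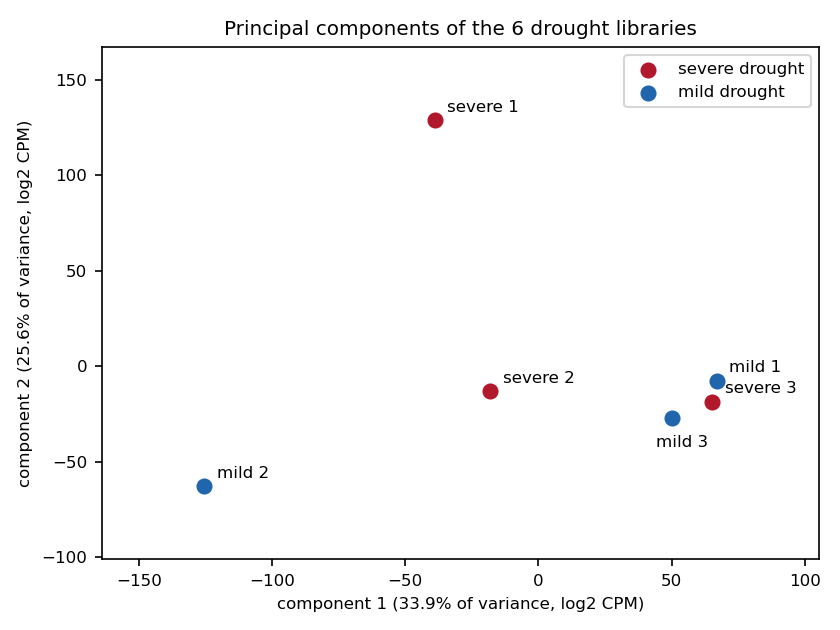
First and second principal components of the log2 CPM of the tested genes in the 3 severe and 3 mild drought libraries, with the share of variance on each axis. Mild drought 2 lies at -125.5 on the first component and severe drought 1 at 128.8 on the second, and neither component separates severe from mild drought.

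The genes named here were those with a protein name, a mean of at least 5 CPM, groups that did not overlap and the smallest p, 10 in each direction; this choice fixes that their groups are apart, so their values are a description. All of them, like every gene named further on, had an adjusted p of at least 0.996 in edgeR. The 10 that were higher in severe drought differed 1.70-fold to 5.93-fold. AVT3B (SORBI_3004G285800, chromosome 4, 62832524 to 62834175), named as a vacuolar amino acid transporter, had 30.1, 18.8 and 24.7 CPM in severe drought, against 9.23, 12.2 and 9.28 CPM in mild drought. Its log2 difference was 1.26 ± 0.28 (adjusted p = 0.0462 in DESeq2). Dirigent protein 1 (SORBI_3005G192600), of a family that guides the coupling of lignin and lignan precursors, had 27.4, 18.8 and 11.6 CPM in severe and 8.26, 3.77 and 6.88 CPM in mild drought (log2 1.61 ± 0.37). All 3 severe drought libraries stood above the mild ones in both genes, with the smaller gap in the dirigent gene.

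A gene similar to WEAK CHLOROPLAST MOVEMENT UNDER BLUE LIGHT (SORBI_3001G536600), which in Arabidopsis helps chloroplasts to move with light, had 10.8 ± 0.75 CPM in severe and 3.56 ± 1.67 CPM in mild drought (log2 1.6002 ± 0.37). The potassium channel gene KAT1 (SORBI_3004G107550, chromosome 4, 10293125 to 10303744), of a channel type that loads potassium into guard cells in Arabidopsis, had 21.6, 34.5 and 12.4 CPM in severe and 8.23, 7.74 and 8.92 CPM in mild drought. Its log2 difference was 1.46 ± 0.35, and SORBI_3004G107500, another KAT1 model that lies within its span, stood at -0.007. Reads of these overlapping models may not have been told apart. Of the 7 tested guard cell markers, SORBI_3004G107550 among them, 2 were above 0 and 5 below. ABC transporter C family member 3 (SORBI_3003G049500) and vacuolar cation/proton exchanger 1a (SORBI_3003G184765), which moves calcium and other cations into the vacuole, were 1.7-fold and 1.8-fold higher, with 16.7 ± 1.63 and 32.6 ± 8.22 CPM in severe drought, against 9.86 ± 1.68 and 18.1 ± 2.44 CPM in mild drought. The F-box/kelch-repeat protein gene SORBI_3004G182700 had 12.2 ± 4.55 CPM in severe and 2.7 ± 1.49 CPM in mild drought.

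In 3 of the genes 1 severe drought library stood far above the rest. BRUTUS (SORBI_3009G222200), a ligase that restrains the iron deficiency response in Arabidopsis, had 332, 96.2 and 81.6 CPM in severe drought, against 51.2, 50.5 and 49.7 CPM in mild drought. Laccase-10 (SORBI_3001G422300), of an enzyme family that polymerises lignin, had 9.89, 33 and 7.94 CPM in severe and 1.01, 5.15 and 2.36 CPM in mild drought. Protein PsbN (SORBI_3001G231300, chromosome 1, 22339902 to 22340114), which is plastid-encoded in plants and has here a nuclear gene model, had 16.3, 24.9 and 72 CPM in severe and 6.87, 4.23 and 11.6 CPM in mild drought (DESeq2 adjusted p = 0.0462). Reads of the plastid copy cannot be told from those of this model, so its level is uncertain. Without that highest library the log2 difference was 0.82 for BRUTUS, against 1.75 with all libraries. It was 1.64 for laccase-10, against 2.57, and 1.44 for PsbN, against 2.32. The control mean lay between the 2 drought means in 7 of the 10 genes.

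The 10 named genes that were lower in severe drought differed 1.74-fold to 8.25-fold, and the control mean lay between the drought means in 9 of them. The smallest p of all tested genes belonged to alliin lyase (SORBI_3003G277800, chromosome 3, 61364457 to 61370278), an enzyme that in garlic cleaves cysteine sulfoxides and whose family includes aminotransferases of auxin synthesis. It had 11, 14 and 17.5 CPM in severe drought, against 62, 69.2 and 37.9 CPM in mild drought, and a control mean of 53.5 ± 7.22 CPM. Every severe drought library lay below every mild one, by a log2 difference of -1.997 ± 0.27 (3.99-fold, adjusted p = 8.48e-07 in DESeq2). An acyltransferase-like gene of the chloroplast (SORBI_3002G260000, chromosome 2, 64531107 to 64536704), similar to enzymes that esterify phytol and fatty acids in Arabidopsis, had 3.26, 3.73 and 5.08 CPM in severe and 19.5, 13.7 and 12.4 CPM in mild drought (log2 -1.92 ± 0.39, DESeq2 adjusted p = 0.0118). ZINC INDUCED FACILITATOR-LIKE 1 (SORBI_3008G015800, chromosome 8, 1301968 to 1316711), a membrane transporter that acts in auxin transport and stomatal closure in Arabidopsis, had 55.1, 87.5 and 71.8 CPM in severe and 149.5, 144 and 147 CPM in mild drought (log2 -1.04 ± 0.21, DESeq2 adjusted p = 0.0204). The mild libraries of this gene lay close together, and all lay above the control mean of 86.7 ± 16.2 CPM.

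FCS-Like Zinc finger 2 (SORBI_3010G265600), of a family that binds the energy-sensing kinase SnRK1, had 87.7, 102 and 89 CPM in severe and 217, 265 and 140.3 CPM in mild drought (log2 -1.16 ± 0.26, DESeq2 adjusted p = 0.0462). Protein phosphatase 2C 65 (SORBI_3002G397600) had 16.3 ± 3.37 CPM in severe and 30.1 ± 3.53 CPM in mild drought. A pair of DNA repair genes was lower by similar amounts. The nuclease FAN1 homolog (SORBI_3010G056100), which repairs crosslinked DNA, had 10.9 ± 1.66 CPM in severe and 18.9 ± 0.988 CPM in mild drought (log2 -0.80 ± 0.18, DESeq2 adjusted p = 0.0323). The kinase ATM (SORBI_3003G103701), which responds to DNA breaks, had 10.2 ± 1.56 CPM in severe and 19.2 ± 3.2 CPM in mild drought (log2 -0.91 ± 0.21, DESeq2 adjusted p = 0.0655).

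In the other lower genes mild drought libraries were uneven. HVA22 (SORBI_3005G121200), of a family induced by abscisic acid in barley, had 16.9, 22.4 and 23.6 CPM in severe and 37.2, 72 and 37.9 CPM in mild drought. The homeobox-leucine zipper gene HOX13 (SORBI_3001G476300), of a transcription factor family, had 6.63, 5.64 and 7.54 CPM in severe and 11.5, 32.9 and 15.2 CPM in mild drought. Mild drought 2 was the highest library in both genes. Without it the log2 difference was -0.84 for HVA22, against -1.23 with all libraries, and -1.02 for HOX13, against -1.59. NADH-ubiquinone oxidoreductase chain 6 (SORBI_3010G098800), a subunit that plants encode in the mitochondrion, had 3.33, 2.47 and 3.45 CPM in severe and 4.95, 29.9 and 41.6 CPM in mild drought (DESeq2 adjusted p = 0.0114). Mild drought 1 came close to the severe libraries there, and reads of the mitochondrial copy cannot be told from those of this nuclear model.

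**Figure D3:**
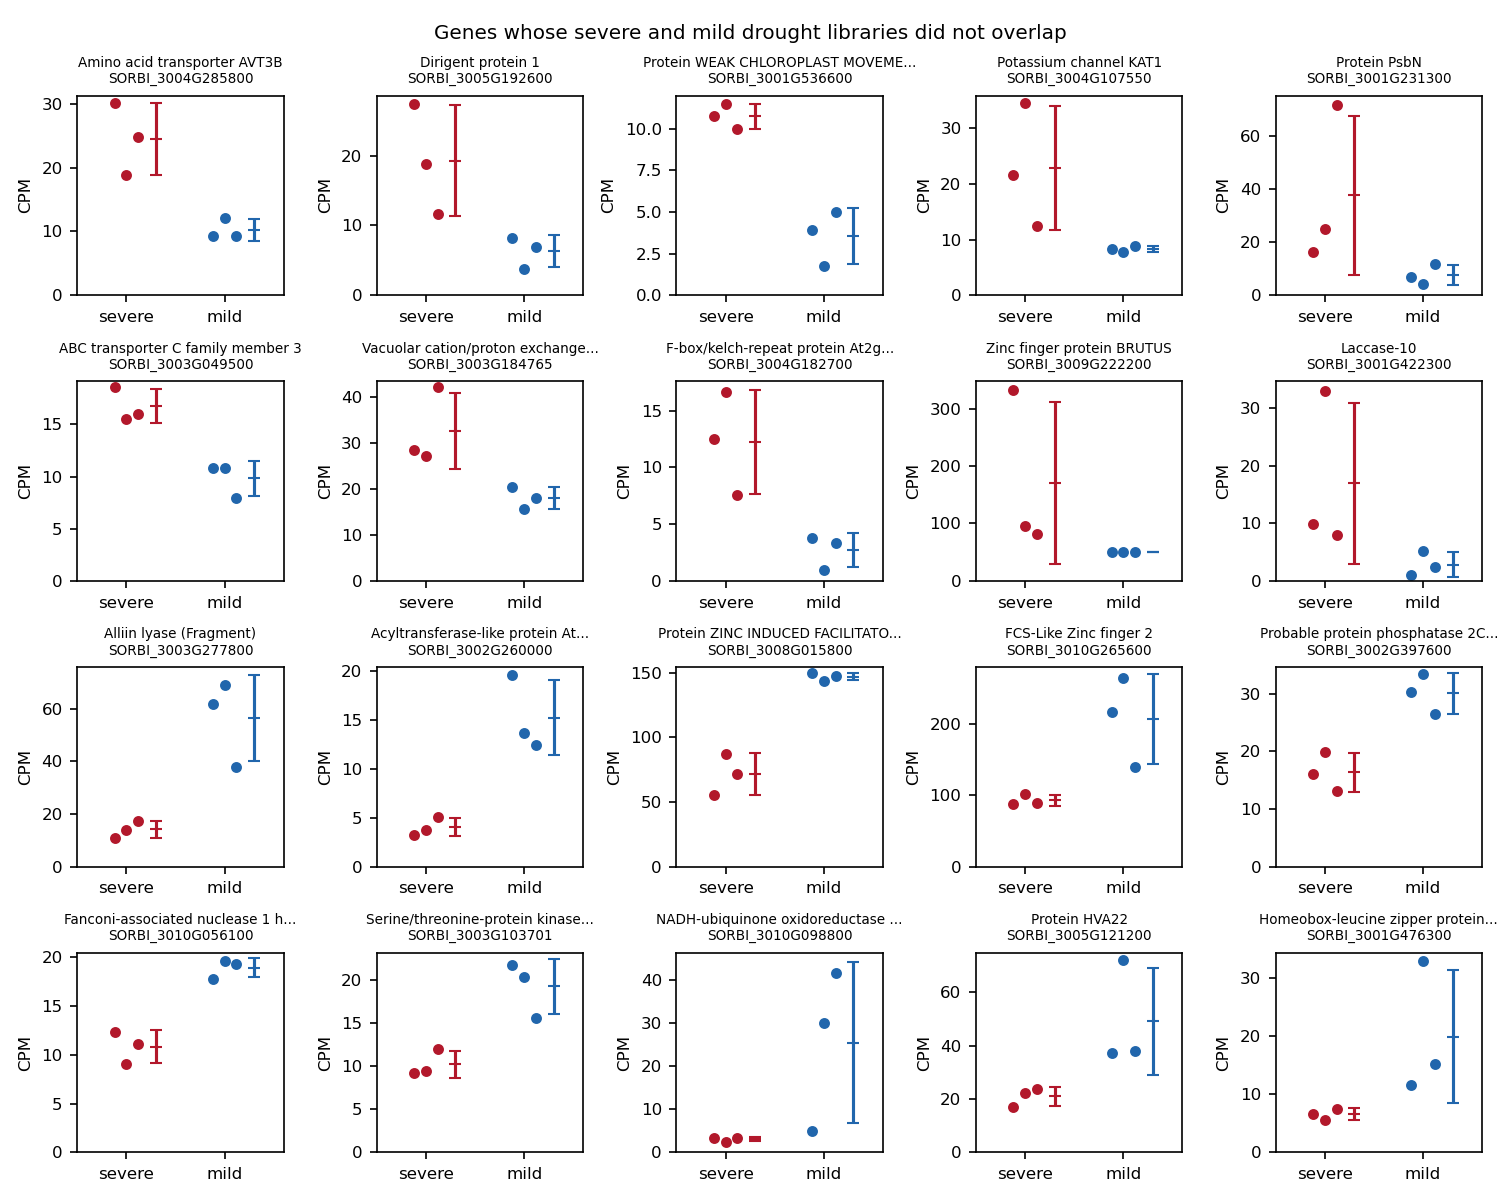
CPM in each library (points) and mean ± SD (bars) of the 20 genes named by the rule, with severe drought on the left and mild drought on the right of each panel. The upper 10 panels hold genes with all severe drought libraries above the mild ones, and the lower 10 those with all severe libraries below, such as alliin lyase with 11, 14 and 17.5 CPM in severe and 62, 69.2 and 37.9 CPM in mild drought.

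DESeq2 called 23 genes, of which 8 are among the 20 above and 22 had groups that did not overlap. These calls were looked up after the edgeR count of 0 was seen. SPX domain-containing protein 6 (SORBI_3003G183600, chromosome 3, 48817705 to 48819078), of a family that senses phosphate status in rice, had 0.51, 0.419 and 0.69 CPM in severe and 3.81, 3.37 and 2.56 CPM in mild drought (log2 -2.58 ± 0.40, adjusted p = 7.92e-06 in DESeq2). The gene named germin-like protein 3-1 (SORBI_3001G483800), whose only listed domain is a tubulin-tyrosine ligase domain and no germin domain, had 0.691 ± 0.0954 CPM in severe and 3.76 ± 1.25 CPM in mild drought. ABC transporter I family member 1 (SORBI_3006G223500) had 1.76 ± 0.251 CPM in severe and 5.26 ± 0.823 CPM in mild drought, and lipid phosphate phosphatase 2 (SORBI_3009G221500) had 1.47 ± 0.658 CPM in severe and 5.6 ± 0.934 CPM in mild drought. All 3 severe drought libraries lay below the mild ones in each of these genes. Lichenase-2 (SORBI_3009G119200), which cleaves mixed-linked glucans of the cell wall, was called higher, with 442, 219.7 and 42.6 CPM in severe and 7.47, 5.64 and 22.6 CPM in mild drought. Its control libraries ranged from 34.7 to 412 CPM, above all 3 mild values. Its log2 difference was 4.304 with all libraries and 3.46 without severe drought 1. A GPI-anchored lipid transfer protein gene (SORBI_3001G059700) had 0 counts in all severe drought libraries, against 9, 28 and 16 counts in mild drought. It was 12.6-fold lower with 3 counts over the group as the floor (lower 95% counting limit 9.87-fold). The called gene whose groups overlapped was XLOC_004770 (chromosome 1, 2468777 to 2472418), which has no protein name. It had 0, 200 and 238 counts in severe drought, 0 counts in every mild drought library and 134, 0 and 0 counts in control 1, 2 and 3. Of the 6 other called genes without a protein name, SORBI_3007G181701 had 0 counts in severe drought, against 33, 40 and 19 counts in mild drought. It was 21.8-fold lower with the same floor (lower 95% counting limit 17.4-fold).

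Among the fixed set of 31 genes of proline, dehydrin, abscisic acid, sugar and C4 metabolism, 16 were above 0 and 15 below. Groups did not overlap in 3 of them, and over all tested genes they did not overlap in 7.83%. P5CS1 (SORBI_3009G160100, chromosome 9, 51779375 to 51800133), which codes for the same enzyme as P5CS2, had 51.5, 84.3 and 56.9 CPM in severe drought, against 96, 85.8 and 148 CPM in mild drought (log2 -0.77 ± 0.26, adjusted p = 0.996). Its severe libraries all lay below the mild ones, with severe drought 2 and mild drought 2 close together, and its control mean was 34.1 ± 2.09 CPM. Proline dehydrogenase 2 (SORBI_3001G304700), which degrades proline, had 22.1, 33.7 and 23.4 CPM in severe and 55.7, 11.4 and 37.5 CPM in mild drought, with overlapping groups. Of 7 tested proline genes, 2 were above 0 and 5 below, with a median of -0.20. P5CS1 was the only one at an unadjusted p under 0.05 (14.3% of the list, beside 3.69% of all tested genes).

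In abscisic acid synthesis, NCED1 (SORBI_3004G268500, chromosome 4, 61268235 to 61270278) had 788, 1403 and 1809.6 CPM in severe and 1208, 85.6 and 2117 CPM in mild drought, so that mild drought 2 stood far below the other 5 libraries. The log2 difference was 0.23 ± 0.95 with all libraries and -0.32 without mild drought 2. Of 11 tested genes of synthesis and breakdown, 5 were above 0 and 6 below (median -0.06). The list of receptors, type 2C phosphatases and SnRK2 kinases holds all named 2C phosphatases, not only those of the abscisic acid pathway, and transcription factors named ABSCISIC ACID-INSENSITIVE 5-like. Its 98 tested members had a median of 0.01, with 50 above 0 and 48 below. At an unadjusted p under 0.05, 4 were lower and 0 higher (4.08% of the list, beside 3.69% of all tested genes). These 4 were 3 phosphatases and an ABSCISIC ACID-INSENSITIVE 5-like gene (SORBI_3001G388300, log2 -1.83). The receptor PYL4 (SORBI_3001G403300) had 5.71, 8.29 and 7.99 CPM in severe and 3.91, 3.3 and 8.84 CPM in mild drought, both below the control mean of 27.8 ± 6.98 CPM. Phosphatase 2C 68 (SORBI_3002G172000) had 35.1 ± 18 CPM in severe and 35.3 ± 14.1 CPM in mild drought (log2 -0.01 ± 0.47, 95% interval -1.08 to 1.06). The phosphatases 2C 65, above, and 2C 11 (SORBI_3004G065200) had the smallest p of the list. 2C 11 had 20.6, 18.4 and 28.9 CPM in severe and 32, 55.8 and 35.3 CPM in mild drought (log2 -0.86 ± 0.26). Of 16 dehydrin and late embryogenesis abundant genes only 5 passed the filter, 1 above 0 and 4 below, with a median of -0.06. LEA protein 31 (SORBI_3007G109800) had 4.11 ± 1.61 CPM in severe and 2.85 ± 2.21 CPM in mild drought, and Lea14-A (SORBI_3009G247900) had 44.8 ± 6.84 CPM in severe and 54.5 ± 30.04 CPM in mild drought.

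Photosynthesis genes had the highest median among the lists of at least 5 tested members, and their levels were high in severe drought 1 and 2. Of 60 tested genes of photosystems and light harvesting, 57 were above 0 and 3 below, with a median log2 difference of 0.55, beside -0.03 for all tested genes. By part, the 21 light-harvesting proteins had 20 above 0 (median 0.60), the 10 photosystem I subunits 9 (0.78), and the 29 photosystem II subunits 28 (0.42). The members come from the same 6 libraries and are not independent. At an unadjusted p under 0.05, 4 members were higher and 0 lower, and 3 had groups that did not overlap. These are 6.67% and 5% of the list, beside 3.69% and 7.83% of all tested genes. The mean level of the list, relative to the 6 libraries, was 0.44, 0.60 and -0.10 in severe drought 1, 2 and 3 and -0.72, -0.16 and -0.07 in mild drought 1, 2 and 3. Severe drought 3 thus lay inside the range of the mild libraries, and the median was between 0.47 (without mild drought 1) and 0.74 (without severe drought 3) when 1 drought library was left out. In bulk leaf RNA, fewer cells of a type and less RNA per cell cannot be told apart.

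Photosystem I chlorophyll a/b-binding protein 5 (SORBI_3004G308700, chromosome 4, 64612218 to 64614545) had 401, 375 and 169.6 CPM in severe and 174, 149 and 218 CPM in mild drought (log2 0.80 ± 0.33). OHP1 (SORBI_3002G033800), a small protein needed to assemble photosystem II in Arabidopsis, had 120.3, 89.6 and 61.6 CPM in severe and 61.6, 43.9 and 52.1 CPM in mild drought (log2 0.78 ± 0.32). In both, severe drought 3 lay below the highest mild library. The list holds several nuclear models of plastid-encoded proteins such as CP43, CP47 and D2, whose reads cannot be told from those of the plastid genome or of each other.

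In the Calvin cycle and photorespiration list, 22 of 33 members were above 0 (median 0.26). At an unadjusted p under 0.05, 3 were higher and 1 lower (12.1% of the list, beside 3.69% of all tested genes). Phosphoribulokinase (SORBI_3004G272100, chromosome 4, 61604748 to 61607233), which regenerates the carbon dioxide acceptor, had 1424, 1154 and 567 CPM in severe and 523, 482 and 638 CPM in mild drought (log2 0.94 ± 0.34), and severe drought 3 again lay below the highest mild library. A transketolase gene of low level (SORBI_3009G062800) had 3.53 ± 0.719 CPM in severe and 5.75 ± 0.314 CPM in mild drought (log2 -0.71 ± 0.26). The C4 list had 17 of 25 members above 0 (median 0.11), 0 at an unadjusted p under 0.05 and 0 with groups that did not overlap. Over all tested genes the last 2 shares were 3.69% and 7.83%. Phosphoenolpyruvate carboxylase 3 (SORBI_3010G160700, chromosome 10, 47244445 to 47253575), the leaf C4 carboxylase, had 32085, 49737 and 24843 CPM in severe and 21357, 14159 and 32491 CPM in mild drought (log2 0.65 ± 0.59, 95% interval -0.70 to 1.997). Pyruvate phosphate dikinase 1 (SORBI_3009G132900) had 20181, 28154 and 17531 CPM in severe and 13538, 4184 and 19897 CPM in mild drought (log2 0.81 ± 0.66). NADP-malic enzyme (SORBI_3003G036200) had 3409, 2957 and 2774 CPM in severe and 2142, 1499 and 3764 CPM in mild drought (log2 0.30 ± 0.40). Mild drought 2 was the lowest of the 6 libraries in all 3 enzymes, and it was also the lowest for the dikinase regulatory protein (SORBI_3002G324500), with 19.5 CPM beside 160.1 to 249 CPM in severe drought. Without mild drought 2 the log2 difference was 0.40 for the carboxylase, 0.39 for the dikinase and 0.045 for the malic enzyme. For the regulatory protein it was 0.37, against 0.87 with all libraries. Carbonic anhydrase (SORBI_3003G234400), which makes the bicarbonate that the carboxylase uses, had 2002 ± 932 CPM in severe and 1211 ± 180.0 CPM in mild drought.

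Genes of raffinose, galactinol and trehalose, sugars that protect drying cells, had 20 of 25 members above 0, with a median of 0.43, and their library levels overlapped. At an unadjusted p under 0.05, 3 were higher and 0 lower (12% of the list). Over all tested genes 46.2% were above 0 and 3.69% had such a p. A galactinol-sucrose galactosyltransferase gene (SORBI_3003G052300, chromosome 3, 4721513 to 4725477), which makes raffinose, had 197, 218 and 104 CPM in severe and 75, 62.1 and 93.9 CPM in mild drought (log2 1.17 ± 0.36). Trehalose-phosphate phosphatase 7 (SORBI_3002G184600) had 41.6, 25.8 and 28.4 CPM in severe and 11.2, 13.8 and 25.2 CPM in mild drought (log2 0.93 ± 0.34). All severe libraries lay above the mild ones in both genes, narrowly so for severe drought 3 in the first and severe drought 2 in the second. Averaged over its members, the list stood at 0.34, -0.02 and 0.46 in severe drought 1, 2 and 3 and -0.59, -0.23 and 0.03 in mild drought 1, 2 and 3, which overlap. Its median lay between 0.30 and 0.65 when 1 drought library was left out.

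In sugar transport and starch, 36 of 70 members were above 0 (median 0.01). At an unadjusted p under 0.05, 4 were higher and 0 lower (5.71% of the list, beside 3.69% of all tested genes). SWEET13 (SORBI_3008G094000, chromosome 8, 43917195 to 43919961), which exports sucrose from leaf cells toward the phloem, had 998, 1002 and 933 CPM in severe and 579.9, 464 and 838 CPM in mild drought (log2 0.64 ± 0.27). The second copy SORBI_3008G094300 had 9.16 ± 4.25 CPM in severe and 4 ± 1.61 CPM in mild drought (log2 1.197 ± 0.43), and the third, SORBI_3008G094400, had 42 ± 6.15 CPM in severe and 38.7 ± 6.51 CPM in mild drought (log2 0.12 ± 0.18). These 3 similar genes of chromosome 8 may share reads. SWEET4 (SORBI_3004G136600) and soluble starch synthase 2-2 (SORBI_3004G238600) had the smallest p of the list, with log2 differences of 0.43 ± 0.15 and 0.73 ± 0.25. The gene named beta-amylase 1 (SORBI_3001G226600), whose only listed domain is a zinc-binding one of reverse transcriptases and no amylase domain, had 33.9, 70.4 and 72.9 CPM in severe and 28.8, 110.2 and 112 CPM in mild drought, with overlapping groups and a control mean of 2.47 ± 3.09 CPM.

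**Figure D4:**
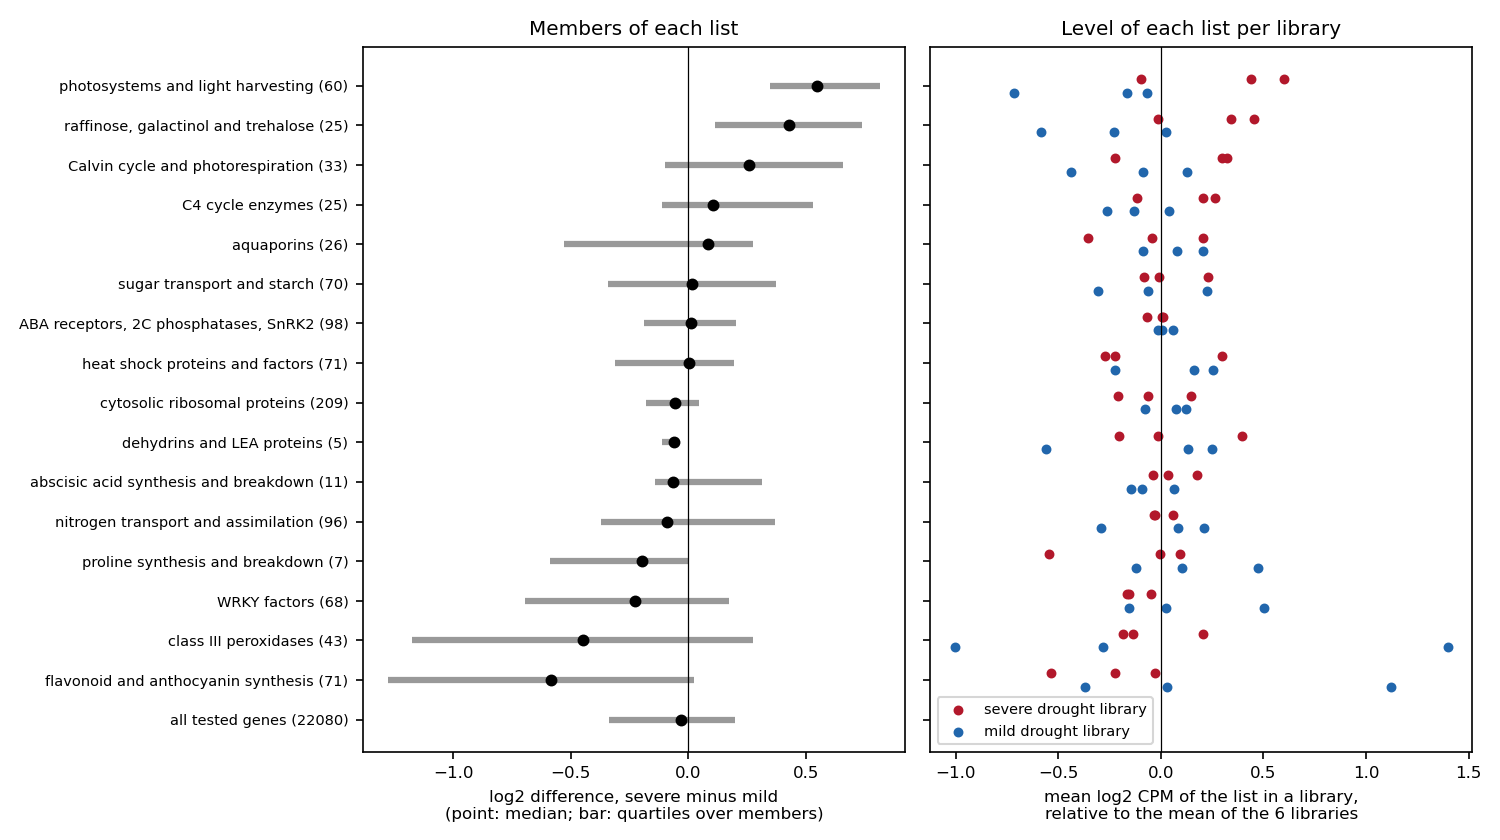
Left, median (point) and quartiles (bar) of the log2 differences, severe minus mild drought, over the tested members of 16 gene lists and of all tested genes, with the number of members in parentheses. Right, the mean log2 CPM of each list in each severe and mild drought library relative to the 6 libraries (none drawn for all genes), where every list shows overlapping groups and mild drought 2 stands out in class III peroxidases and flavonoid genes.

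Genes of flavonoid and anthocyanin synthesis, pigments and light screens, had the lowest median among the lists of at least 5 tested members, and it rested on mild drought 2. Of 71 tested members 52 were below 0 (median -0.59). At an unadjusted p under 0.05, 7 were lower and 0 higher (9.86% of the list, beside 3.69% of all tested genes). Chalcone synthases, which open the pathway, had 8 of 9 genes below 0 (median -2.02). Chalcone synthase 4 (SORBI_3005G136300, chromosome 5, 58879892 to 58882287) had 1.26, 1.3 and 1.33 CPM in severe and 6.9, 3.05 and 3.6 CPM in mild drought (log2 -1.796 ± 0.41). In that gene every severe library lay below every mild one. Most chalcone synthase genes lie close together on chromosome 5 and may share reads. A leucoanthocyanidin dioxygenase gene (SORBI_3004G000700, chromosome 4, 71139 to 72677) had 0 counts in all 3 severe drought libraries and 64, 1139 and 19 counts in mild drought 1, 2 and 3. It was 289.9-fold lower in severe drought, taking 3 counts over the group as the floor (lower 95% counting limit 235-fold), but mild drought 2 held most of these counts. Against mild drought 1 and 3 alone the value with this floor was 34.7-fold. The controls had 2, 10 and 0 counts, so the gene had few counts with normal water supply as well. DESeq2 called the gene (adjusted p = 0.000463). Averaged over its members, the list stood at -0.22, -0.03 and -0.54 in severe drought 1, 2 and 3 and 0.03, 1.12 and -0.37 in mild drought 1, 2 and 3, and without mild drought 2 the list median was 0.01.

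Class III peroxidases, secreted enzymes that act on cell walls and peroxide, had a median of -0.45, with 26 of 43 below 0, and here too mild drought 2 stood apart, at a mean level of 1.398 beside -0.18 to 0.20 in severe drought and -1.004 and -0.28 in mild drought 1 and 3. Without it the median was 0.44. The members with the smallest p each rested on 1 library, peroxidase 39 (SORBI_3004G049800) with 0.204, 0.14 and 0.0986 CPM in severe and 0.252, 7.09 and 0.2 CPM in mild drought, and peroxidase P7 (SORBI_3010G162000) with 2.86, 0 and 0.0986 CPM in severe and 0, 0.0462 and 0 CPM in mild drought. WRKY factors, transcription factors of defence and senescence, had 41 of 68 below 0 (median -0.23, and -0.04 without mild drought 2). At an unadjusted p under 0.05, 1 was higher and 6 lower (10.3% of the list, beside 3.69% of all tested genes). WRKY1 (SORBI_3001G095500) had 18.2, 23.9 and 26.6 CPM in severe and 52.5, 32.7 and 43.2 CPM in mild drought (log2 -0.90 ± 0.29). WRKY24 (SORBI_3009G100500) went the other way, with 82.9, 64.9 and 60.5 CPM in severe and 44.7, 50.9 and 46.3 CPM in mild drought (log2 0.55 ± 0.18).

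The 209 tested cytosolic ribosomal proteins had 67 above 0 and 142 below, with a median of -0.06. In 177 of them the 95% interval lay within a 2-fold change either way, as it did in 42.89% of all tested genes and 63.2% of those at 5 CPM or more. At an unadjusted p under 0.05, 0 were higher and 1 lower (0.478% of the list, beside 3.69% of all tested genes). The ribosomal genes S15 (SORBI_3009G191200) and S2-3 (SORBI_3010G150575) had log2 differences of -0.36 ± 0.15 and -0.60 ± 0.29. Heat shock proteins and factors had 36 of 71 above 0 (median 0.0031) and 0 at an unadjusted p under 0.05, and a heat shock cognate 70 kDa protein (SORBI_3001G420100) and a stromal one (SORBI_3001G129000) differed by 0.53 ± 0.29 and 0.53 ± 0.30. Nitrogen transport and assimilation had 42 of 96 above 0 (median -0.09). At an unadjusted p under 0.05, 3 were higher and 5 lower (8.33% of the list, beside 3.69% of all tested genes). The transporter NRT1/PTR family 6.1 (SORBI_3009G049900) had 26.5 ± 6.78 CPM in severe and 15.3 ± 1.88 CPM in mild drought, and the glutamate synthase gene SORBI_3009G225700 had 0.109 ± 0.0233 CPM in severe and 0.627 ± 0.145 CPM in mild drought. Aquaporins, the water channels of membranes, had 15 of 26 above 0 (median 0.08). TIP2-2 (SORBI_3010G146100), of the vacuolar membrane, had 55.4, 31.6 and 44.2 CPM in severe and 10.8, 6.05 and 31.6 CPM in mild drought (log2 1.44 ± 0.53). NIP4-1 (SORBI_3003G098100) had 2, 0 and 0 counts in severe and 63, 24 and 50 counts in mild drought, and was called by DESeq2. The ratio of mild over severe was 48.7 (95% counting interval 13.2 to 407, without the spread between libraries). With that spread, the edgeR log2 difference was -5.65 ± 1.24 (95% interval -8.45 to -2.84).

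Over the 39 lists with at least 5 tested members, 17 medians were above 0 and 22 below, and in 0 lists did the mean levels of the severe libraries part from those of the mild ones. Mild drought 2 was the highest of the 6 libraries in 20 lists and mild drought 1 the lowest in 19, and without mild drought 2 the sign of the median changed in 18 lists. As a leaf check, the C4 enzymes above were abundant. Of 4 genes listed as root markers by a Casparian strip protein name, 1 passed the filter (SORBI_3007G001300, mean 23.03 CPM over the 6 libraries). That list therefore does not serve as a check for the absence of root genes. Guard cell markers had 7 of 21 genes tested, with 2 above 0 and 5 below (median -0.58) and mean levels of 0.45, -0.10 and -0.28 in severe drought 1, 2 and 3 and -0.97, 0.97 and -0.06 in mild drought 1, 2 and 3. The KAT1 gene SORBI_3004G107550, named above as higher, was 1 of the 2 above 0. No other member had an unadjusted p under 0.05 (14.3% of the list, beside 3.69% of all tested genes). Leaving out 1 drought library moved the guard cell median between -1.01 (without mild drought 1) and -0.013 (without severe drought 3). Vascular markers had 4 of 7 above 0 (median 0.12), and their levels were -0.0038, -0.06 and 0.47 in severe and -0.41, -0.04 and 0.03 in mild drought 1, 2 and 3. The 3 SWEET13 genes described above, which may share reads, are among the 4 above 0. The only members at an unadjusted p under 0.05 were 2 of them (28.6% of the list, beside 3.69% of all tested genes). Groups did not overlap in 42.9% of the list, beside 7.83% of all tested genes. Markers of dividing cells had 11 of 17 above 0 (median 0.17), with levels of -0.26, 0.06 and 0.43 in severe and -0.35, 0.34 and -0.22 in mild drought 1, 2 and 3. The part of cell composition in the gene differences was not tested.

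Among lncRNAs, 4 of 4903 tested transcripts were called by edgeR, 1 higher (0.0204%) and 3 lower (0.0612%) in severe drought, and all carry the name class OT, which the sources used here do not explain. At an unadjusted p under 0.05 there were 178, where uniform p-values would give 245, and DESeq2 called 8 higher and 16 lower. Groups did not overlap in 210 transcripts that were higher (4.28%) and 245 that were lower (5%). A pair of called transcripts belongs to the same gene locus, SORBI_3010G232200, and their counts are exchanged between the drought levels. SORBI_3010G232200-OT3 (chromosome 10, 57531766 to 57535282) had 0 counts in all 3 severe drought libraries, against 456, 341 and 328 counts in mild drought 1, 2 and 3 and 362, 192 and 327 in the controls. It fell 267-fold, with 3 counts over the group as the floor (lower 95% counting limit 217-fold, adjusted p = 0.00903 in edgeR). SORBI_3010G232200-OT2 (chromosome 10, 57531727 to 57535299) had 130, 352 and 286 counts in severe drought, against 5, 2 and 5 in mild drought and 5, 5 and 4 in the controls. It rose, with a severe to mild ratio of 89.9 (95% counting interval 51.2 to 175, without the spread between libraries). With that spread, the edgeR log2 difference was 6.43 ± 0.82 (95% interval 4.58 to 8.28, adjusted p = 0.028). In both transcripts the mild libraries lay with the controls and the severe libraries apart.

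The sum of both transcripts was 4.42, 16.4 and 14.1 CPM in severe drought 1, 2 and 3, against 14.5, 7.92 and 13.3 CPM in mild drought 1, 2 and 3, with overlapping groups (11.6 ± 6.36 CPM in severe and 11.9 ± 3.52 CPM in mild drought). The whole gene count of the locus differed by a log2 value of -0.18 ± 0.30 (adjusted p = 0.996). The transcript models share most of their span, so the counts say which model the reads were given to, and the sources used here do not state how reads were divided between overlapping transcripts. For transcripts of 1 locus a difference therefore cannot be told apart from a different division of the reads.

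SORBI_3002G094800-OT3 (chromosome 2, 9826750 to 9828843) had 0 counts in all severe drought libraries, against 93, 102 and 69 counts in mild drought and 37, 38 and 73 in the controls. It fell 62.6-fold with the same floor (lower 95% counting limit 50.6-fold, adjusted p = 0.028 in edgeR), while the gene count of its locus stood at a log2 difference of -0.01 ± 0.24. The neighbouring model OT2 of this locus had 0, 264 and 298 counts in severe drought 1, 2 and 3, against 373, 523 and 286 counts in mild drought 1, 2 and 3. SORBI_3K044411-OT4 (scaffold super_2942, 692 to 2564) had 1, 0 and 0 counts in severe drought, against 576, 517 and 588 counts in mild drought and 0, 0 and 2 in the controls. It fell, with a mild to severe ratio of 1196 (95% counting interval 214 to 47276), and its counts were high only in mild drought among the 3 groups. With the spread between libraries, the edgeR 95% interval of its log2 difference was -12.8 to -7.18 (adjusted p = 0.028). Its locus SORBI_3K044411 differed by -1.17 ± 0.85, and other models of the locus also varied between libraries of 1 group. OT3 of that locus, for example, had 415, 0 and 0 counts in mild drought 1, 2 and 3.

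These calls were not stable to the choice of libraries. With the 6 drought libraries alone edgeR called 0 lncRNA transcripts, with 101 of 4105 at an unadjusted p under 0.05. Without control 1, mild drought 1 or mild drought 3, 0 were called in either direction. Without control 2, mild drought 2 or severe drought 2 there were 0 higher and 1 lower, without control 3 there were 0 higher and 2 lower, without severe drought 3 there were 0 higher and 3 lower, and without severe drought 1 there were 2 higher and 4 lower. The log2 differences of the 4 transcripts kept their direction in every one of these fits. Their groups did not overlap, so leaving out libraries could not have changed the direction.

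**Figure D5:**
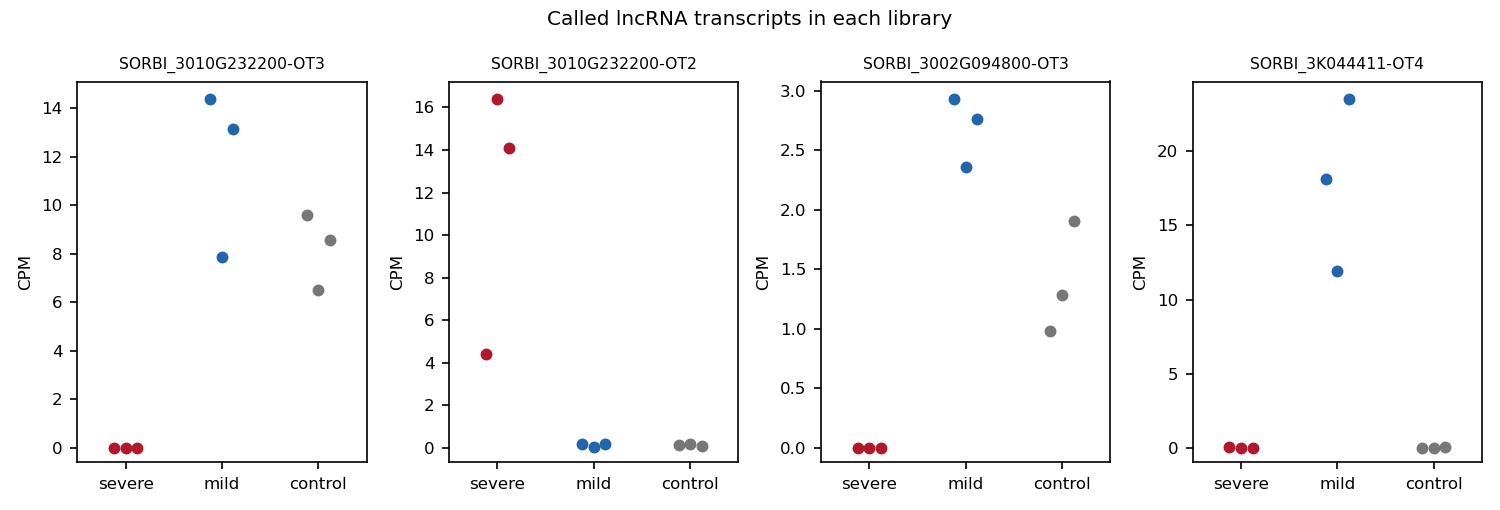
CPM of the 4 called lncRNA transcripts in each library of severe drought, mild drought and control (points). SORBI_3010G232200-OT3 and SORBI_3002G094800-OT3 are at 0 in all severe drought libraries, SORBI_3010G232200-OT2 is highest there (4.42, 16.4 and 14.1 CPM), and SORBI_3K044411-OT4 is high in mild drought only (18.2, 11.9 and 23.5 CPM).

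Further lncRNAs with groups apart and the smallest p did not pass in edgeR. SORBI_3006G044301-OT2 had 0 counts in severe drought, against 3.88, 5.2 and 3.76 CPM in mild drought (adjusted p = 0.0725). SORBI_3004G291700-OT3, at a locus described as a phosphomethylethanolamine N-methyltransferase, an enzyme of phosphocholine synthesis, had 0, 4 and 0 counts in severe drought, against 233, 90 and 232 counts in mild drought (adjusted p = 0.998). Both were called by DESeq2 (adjusted p = 2.34e-07 and 0.00118). Of those higher in severe drought, SORBI_3009G183000-OT4 had 44, 238 and 193 CPM in severe and 29.1, 4.78 and 23.3 CPM in mild drought, and its control mean was 129 ± 39.99 CPM. The transcript SORBI_3010G229450-AS1 had 5.32 ± 2.28 CPM in severe and 0.834 ± 0.323 CPM in mild drought. LINC3760 had 1.7 ± 0.59 CPM in severe and 0.346 ± 0.138 CPM in mild drought, and LINC5130 had 5.83 ± 2.92 CPM in severe and 1.41 ± 0.505 CPM in mild drought. Of the 4903 tested transcripts, 43 had 0 counts in all severe drought libraries and 15 had 0 counts in all mild drought libraries. The filter on low counts took all 9 libraries. A transcript with 0 counts in a whole drought group thus passed it only through libraries of the other groups, so these counts are a description. Severe drought libraries detected 5340, 6972 and 5832 lncRNA transcripts, against 6084, 8897 and 7780 in the mild drought libraries, and its part in the 0 counts was not tested. The 908 tested transcripts of class OT had a median log2 difference of -0.03, the 2511 LINC transcripts one of -0.002 and the 1105 AS transcripts one of 0.06.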

How the data were processed

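Counts per gene and per lncRNA transcript, and FPKM values (fragments scaled by length and library size), were deposited by the authors for the 3 severe drought, 3 mild drought and 3 control leaf libraries. HISAT2 2.0.4, STAR and StringTie 1.3.3b are named in the submitters' processing notes, with no role. The genome build, the counting program and the strand setting of the counting are not given in the sources used here, so reads of overlapping sense and antisense models may not have been told apart. The deposited mRNA FPKM table was used to select the genes and in no test.

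Samples were grouped by the treatment label. The members, gene lists and named genes were chosen with earlier results of these data known. Counts were tested with edgeR 4.0.16 (R 4.3.3, limma 3.58.1): filterByExpr with a minimum count of 10, TMM scaling, a quasi-likelihood fit of all 9 libraries, which share 1 estimate of the spread (6 residual degrees of freedom), and the contrast severe minus mild, with Benjamini-Hochberg adjustment over all tested genes. The lncRNA fit used the effective library sizes of the gene fit. The SE is the log2 difference divided by the square root of F. Intervals at 95% for ratios of counts, and floors of 3 counts, pool the counts of the 3 libraries of a group. The intervals cover counting error only, and the floors take the counts of the other group as exact. Both leave out the spread between libraries. No molecular identifiers are recorded. Named were the 10 genes in each direction with a protein name, a mean of 5 CPM or more in the 6 drought libraries, groups without overlap and the smallest p; 31 drought genes; and the 2 smallest p of each described list. For lncRNAs these were the called transcripts and up to 5 in each direction with groups apart and a mean of 1 CPM or more. Genes called by DESeq2 1.42.0 were added after the data were seen. Depth was 27854146 to 41228478 counts per library in the gene table. The alternatives were DESeq2, RLE scaling, other filters, the 6 drought libraries alone, lncRNA library sizes, a replicate block and leaving out each library. The scripts were tested on simulated counts. Figures were drawn with matplotlib 3.10.9.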

Additional observations from a re-analysis of the deposited data

How the results depend on the processing

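For genes, edgeR called 0 in each direction under every alternative run, including the fit with a replicate block (611 genes at an unadjusted p under 0.05), while DESeq2 called 6 higher and 17 lower. The replicate numbers matched severe to mild libraries only in part. Libraries with number 1, 2 and 3 had correlations of deviations of -0.02, 0.17 and 0.35. Libraries 2 and 3, but not 1, matched their own number best. The labels do not say whether a number marks a pair. For lncRNAs, 1 was called higher and 3 lower. DESeq2 called 8 higher and 16 lower, the fit without a filter on low counts called 10 higher and 19 lower, and the filter at 5 CPM left 0 higher. The 6 drought libraries alone and the replicate block each gave 0 higher and 0 lower. Leaving out 1 library gave 0 to 2 higher and 0 to 4 lower. Why the counts moved was not tested. Without a filter the median log2 difference of all genes was -0.10, against -0.03, and 37.1% of genes were above 0, against 46.2%. Without mild drought 2, 51.9% were above 0.

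Of the 20 genes chosen for groups that did not overlap, 0 of 300 values under the alternatives changed sign. That choice largely fixed this outcome, so it says little about stability. Over all 94 named genes 38 of 1385 values changed sign, in 22 genes. With the replicate block P5CS2 stood at 0.088. A phosphatase 2C 68 gene (SORBI_3002G360701) stood at -0.010 without a filter and at -0.013 with the filter at 5 CPM. The other changes of sign came from leaving out 1 library, for which the lowest and highest log2 differences follow. Among proline and dehydrin genes these ranges were -0.32 to 0.67 for P5CS2 (SORBI_3003G356000), -0.82 to 0.11 for proline dehydrogenase 2 (SORBI_3001G304700), -0.91 to 0.18 for DHN1 (SORBI_3009G116700) and -0.52 to 0.27 for Lea14-A (SORBI_3009G247900). Among NCED genes these ranges were -0.32 to 1.05 for NCED1 (SORBI_3004G268500), -0.52 to 0.31 for SORBI_3001G155300, -0.52 to 0.13 for SORBI_3002G168800 and -0.74 to 1.43 for SORBI_3002G168700. Among genes named as phosphatase 2C 68 these ranges were -0.43 to 0.32 for phosphatase 2C 68 (SORBI_3002G172000), -0.25 to 0.0038 for SORBI_3001G446900, -0.11 to 0.10 for SORBI_3002G360701 and -0.21 to 0.42 for SORBI_3003G139366. Among carboxylase and dikinase genes these ranges were -0.39 to 0.28 for SORBI_3002G167000, -0.51 to 0.14 for SORBI_3003G301800, -0.34 to 0.16 for SORBI_3004G106900 and -0.26 to 0.070 for SORBI_3001G326900. Among malic enzyme genes these ranges were -0.44 to 0.0091 for SORBI_3003G036000, -0.21 to 0.34 for SORBI_3003G280900, -1.15 to 0.11 for SORBI_3003G292400, -0.30 to 1.199 for SORBI_3005G154850, -0.01 to 1.29 for SORBI_3009G069600 and -0.10 to 0.28 for SORBI_3009G108700. The cause was not tested. Of 273 values for the medians of 39 lists under the alternatives, 259 moved by less than the spread between libraries. That spread includes the library left out, and the count ignores changes of sign. Without mild drought 2 the sign changed in 18 lists. Genes under the filter on low counts were not tested, and at this depth and spread a median gene was bounded only to 0.85 on the log2 scale either way.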

Other observations

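A further 2594 entries of the gene count table stand in neither the mRNA nor the lncRNA table of FPKM values. Of these, 899 passed the filter on low counts. edgeR called 0 of them between severe and mild drought (36 at an unadjusted p under 0.05, smallest adjusted p 0.961). A single such entry, XLOC_003452, held 7.33%, 10% and 17.2% of the gene table counts in severe drought 1, 2 and 3, against 8.35%, 2.15% and 9.54% in mild drought 1, 2 and 3. Among lncRNAs, TCONS_00022715 held 40.7% of all counts.

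Circadian clock genes, which were not described above, had 24 of 31 tested members above 0, beside 46.2% of all tested genes. Their median log2 difference was 0.21, beside -0.03 for all tested genes. At an unadjusted p under 0.05, 1 was higher and 0 lower (3.23% of the list, beside 3.69%). The list stood at 0.29, 0.09 and -0.04 in severe drought 1, 2 and 3 and -0.29, 0.04 and -0.09 in mild drought 1, 2 and 3, which overlap. The labels give no time of sampling.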
